A study of Mus musculus with 6 samples.

Results

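The immunoglobulin heavy and light chain genes were followed in mouse liver after ischemia and reperfusion. Rows were taken by symbol: every heavy, kappa and lambda variable (V) gene (Ighv, Igkv, Iglv), the constant region genes Igkc, Iglc1, Iglc2, Iglc3, Ighm, Ighd, Igha, Ighg1, Ighg2b, Ighg2c and Ighg3, and the joining chain gene Jchain. Of 216 rows with such names, 96 had a mean of at least 0.5 FPKM over the 6 libraries and were kept, out of 29543 gene rows in all. FPKM is a level per length, the fragments of a gene divided by its length and by library depth. The 96 were 42 Ighv, 41 Igkv and 2 Iglv genes, 6 heavy and 4 light constant region genes, and Jchain. GENCODE M21 gave all 85 V genes the biotype IG_V_gene and the 10 constant region genes IG_C_gene. The members were thus chosen by their measured mean level, so the levels of Igkv13-85 (mean 0.502 FPKM), Ighv5-9-1 (0.513) and Ighv10-1 (0.526), just inside the threshold, and of Ighv2-6 (0.494), Igkv4-86 (0.486) and Ighv2-9 (0.478), just outside it, are given only as a description. Of the 96 members, 19 had a mean under 0.5 FPKM in the Sham libraries and 8 had one under 0.5 FPKM in the IR injury libraries, so these 27 were kept through the other group, and counts over the members are given beside the background and not as support.

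The study sequenced RNA from whole liver in 6 libraries. In the IR injury group (3 libraries) the blood supply of the liver was interrupted and restored after laparotomy, and in the Sham group (3 libraries) the abdomen was opened only. The sources used here give no strain, sex, age or genotype and no times of ischemia and reperfusion. The labels speak of replicate biosamples without naming animals, so a p-value sets the difference against library-to-library spread alone, and that spread may be technical.

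An antibody is built from paired heavy and light chains, each with a variable region that binds the antigen and a constant region that sets the class. Each B cell joins a single heavy V gene and a single light V gene to its constant regions, so the mix of V genes in a tissue reflects the B cell and plasma cell clones whose RNA it holds. Resting B cells carry IgM and IgD, whose constant regions are encoded by Ighm and Ighd, and class switching replaces these by IgG or IgA. Plasma cells secrete antibody and hold far more immunoglobulin RNA than resting B cells do. The liver lies downstream of the gut, receives IgA-producing cells and blood from it, and transports IgA into bile.

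Rebuilt from the FPKM values, the libraries held 57397963, 68922517 and 54042831 reads in the IR injury group and 66701368, 71752584 and 53622229 reads in the Sham group. In a limma fit on log2(FPKM + 1) of the 12322 genes at or above the same 0.5 FPKM mean, 76.3% passed an adjusted p of 0.05: 2803 genes (22.7%) were higher and 6601 (53.6%) lower in IR injury, with a median log2 fold change of -0.24. Rescaling the libraries so that the median gene did not change (median-of-ratios scaling) gave 36.8% higher and 36.7% lower, with a median of 0.00, so fold changes on the deposited scale are to be read against that shift. The tissue label held: albumin (Alb) was listed at 36745 to 39389 FPKM in IR injury and at 44782 to 49549 FPKM in Sham. All 11 neutrophil markers rose, and their summed level was 153.8 to 195.7 FPKM in IR injury and 11.6 to 13.0 FPKM in Sham. Their part in the immunoglobulin differences was not tested. In bulk tissue, fewer cells of a type and less RNA per cell cannot be told apart.

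The heavy chain classes moved in opposite directions. The IgG genes and Igha were higher in IR injury and the IgM and IgD genes were lower, with no overlap between the groups for any of the 6. Among the 11 constant region genes and Jchain, 6 rose, 2 fell and 3 did not pass, with a median log2 fold change of 0.45. In all, 72.7% of these genes were called and 72.7% had groups apart, near the 76.3% and 79.1% of all genes tested. By exact permutation of the library labels, Igkc, Ighm and Jchain each gave a two-sided p of 0.1, the smallest that 3 against 3 libraries allow. Calls below are from limma with Benjamini-Hochberg adjustment over all 12322 genes.

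**Figure D1:**
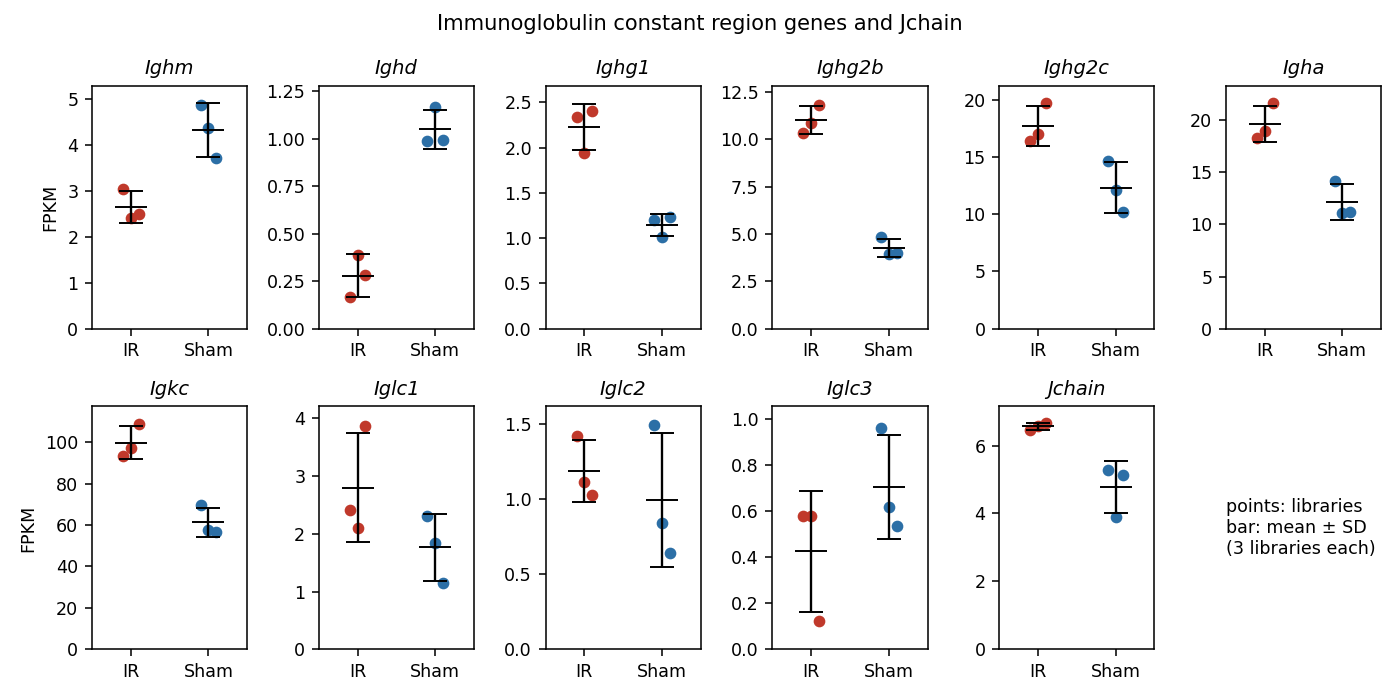
FPKM (y axis, from 0) of the 10 constant region genes and Jchain in the 3 IR injury and 3 Sham libraries; points are libraries and bars the mean ± SD. The groups are apart for 8 genes, with Ighm and Ighd the 2 that are lower in IR injury, and they overlap for Iglc1, Iglc2 and Iglc3.

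Ighg2b (ENSMUSG00000076613, mm10 chr12:113302965-113307933, minus strand), the IgG2b constant region, showed the largest rise of the constant genes. It was listed at 10.4, 10.9 and 11.8 FPKM in IR injury, against 4.82, 3.93 and 4.02 FPKM in Sham. Every IR injury library was above every Sham library, and the means were 11.0 ± 0.735 and 4.26 ± 0.491 FPKM (SD, n = 3 each). The log2 fold change was 1.19 (SE 0.0791, adjusted p = 6.86e-06). Ighg1 (chr12:113325240-113330523), the IgG1 constant region, was listed at 2.34, 1.94 and 2.41 FPKM in IR injury and at 1.197, 1.01 and 1.23 FPKM in Sham. The groups did not overlap, and the log2 fold change was 0.59 (SE 0.0761, adjusted p = 2.44e-04). Ighg2c (chr12:113285325-113288932), the IgG2c constant region that some mouse strains carry in place of Ighg2a, was listed at 16.4, 17.0 and 19.7 FPKM in IR injury and at 14.7, 12.1 and 10.2 FPKM in Sham. The lowest IR injury library was only just above the highest Sham library, and the log2 fold change was 0.50 (SE 0.125, adjusted p = 0.00762). Within each library, the ratio of Ighg2b to Ighg2c was 0.631, 0.639 and 0.599 in IR injury and 0.328, 0.325 and 0.394 in Sham, so IgG2b weighed more against IgG2c in every IR injury library.

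Igha (ENSMUSG00000095079, chr12:113254830-113260236), the constant region of the mucosal antibody IgA, had the highest mean of the heavy constant genes. It was listed at 18.3, 18.9 and 21.6 FPKM in IR injury and at 14.2, 11.1 and 11.2 FPKM in Sham. The groups did not overlap, the means were 19.6 ± 1.75 and 12.2 ± 1.73 FPKM (SD, n = 3 each), and the log2 fold change was 0.65 (SE 0.102, adjusted p = 6.75e-04). Jchain (ENSMUSG00000067149, chr5:88519809-88527891), which links IgA and IgM into polymers, was listed at 6.46, 6.58 and 6.67 FPKM in IR injury and at 5.28, 3.89 and 5.14 FPKM in Sham. All IR injury libraries lay above all Sham libraries, and the 3 IR injury values were closer together than the Sham values. The log2 fold change of Jchain was 0.40 (SE 0.0954, adjusted p = 0.00599).

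Ighm (ENSMUSG00000076617, chr12:113418558-113422730), the IgM constant region, went the other way. It was listed at 3.05, 2.40 and 2.50 FPKM in IR injury and at 4.88, 4.37 and 3.71 FPKM in Sham. The IR injury libraries were all lower, and Ighm fell by 0.54 on the log2 scale (SE 0.10, adjusted p = 0.00165). With median-of-ratios scaling the log2 fold change of Ighm was -0.28 (adjusted p = 0.0471), about 2 times smaller on the log2 scale. Ighd (ENSMUSG00000104213, chr12:113406604-113416324), the IgD constant region and a sign of resting naive B cells, was listed at 0.165, 0.389 and 0.282 FPKM in IR injury and at 0.986, 1.17 and 0.991 FPKM in Sham. These values stood on 18, 51 and 29 rebuilt reads in IR injury and on 125, 159 and 101 in Sham. No library of one group reached the other, and Ighd fell by 0.68 on the log2 scale (SE 0.0799, adjusted p = 1.42e-04). With means of 0.279 FPKM in IR injury and 1.05 FPKM in Sham, Ighd was kept and tested only through the Sham libraries. A difference was thus built into its choice, and its p-value is no independent support for it.

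As shares of the summed FPKM of the 6 heavy constant genes, IgG took 57.5%, 57.9% and 58.2% in IR injury and 50.8%, 50.6% and 49.3% in Sham. IgA took 36.2%, 36.7% and 37.0% in IR injury, against 34.8%, 32.9% and 35.8% in Sham, so the groups came close to each other for this class. IgM took 6.02%, 4.66% and 4.29% in IR injury, against 12%, 13.0% and 11.8% in Sham. IgD took 0.326%, 0.756% and 0.484% in IR injury, against 2.42%, 3.47% and 3.16% in Sham. The ratio of switched (IgG and IgA) to IgM and IgD constant FPKM was 14.8, 17.5 and 19.9 in the IR injury libraries and 5.94, 5.08 and 5.68 in the Sham libraries. Such ratios within a library do not depend on how the libraries were scaled to each other, and they were not tested because they sum chosen genes.

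**Figure D2:**
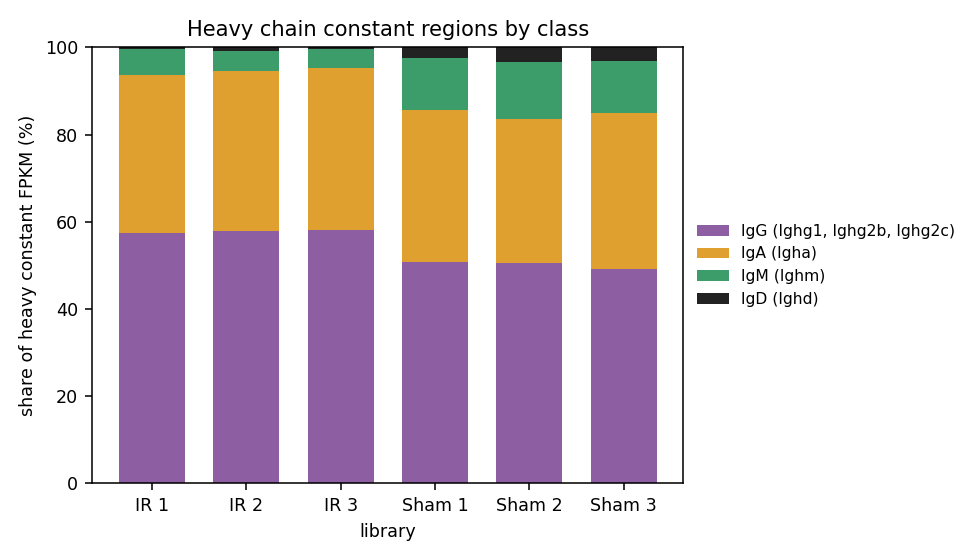
Share (y axis, %) of IgG, IgA, IgM and IgD in the summed FPKM of the 6 heavy constant genes, 1 bar per library, IR injury libraries to the left of Sham libraries. IgM and IgD together take 4.78% to 6.35% of each IR injury bar and 14.4% to 16.5% of each Sham bar.

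Of the light chains, kappa dominated and rose. Igkc (ENSMUSG00000076609, chr6:70726435-70726966, plus strand), the kappa constant region, had the highest level of all 96 members, at 93.3, 97.1 and 108.9 FPKM in IR injury and 69.5, 57.6 and 56.8 FPKM in Sham. The groups were well apart, with means of 99.8 ± 8.13 and 61.3 ± 7.14 FPKM (SD, n = 3 each), and the log2 fold change was 0.70 (SE 0.0920, adjusted p = 2.70e-04). The lambda constant genes did not pass. Iglc1 was listed at 2.42, 2.11 and 3.87 FPKM in IR injury and at 2.31, 1.84 and 1.15 FPKM in Sham, with a log2 fold change of 0.45 (SE 0.205, adjusted p = 0.0793). With median-of-ratios scaling it passed (0.68, adjusted p = 0.0151). Iglc2 was at 1.42, 1.11 and 1.03 FPKM in IR injury and at 1.49, 0.843 and 0.640 FPKM in Sham (adjusted p = 0.388). Iglc3 was at 0.578, 0.578 and 0.123 FPKM in IR injury and at 0.962, 0.617 and 0.536 FPKM in Sham (adjusted p = 0.152). Without replicate 1 of Sham, Iglc1 (0.59, adjusted p = 0.0438) and Iglc2 (0.33, adjusted p = 0.0248) passed. Leaving out each library gave log2 fold changes of 0.26 to 0.59 for Iglc1 and 0.03 to 0.33 for Iglc2. How alike the lambda constant genes are in sequence was not measured here. How the authors counted reads shared by genes is not given, so the split between these genes may be uncertain. The ratio of Igkc to the summed lambda constant genes was 21.1, 25.5 and 21.7 in IR injury and 14.6, 17.5 and 24.4 in Sham, so the groups overlapped.

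Markers of the B cells that carry IgM and IgD were at low levels, and most but not all moved the same way as Ighm and Ighd. Of 20 listed B cell markers, 4 reached 0.5 FPKM, of which none was higher and 3 were lower in IR injury, where 53.6% of all genes tested were lower. Cd79a and Cd79b, the signalling chains of the B cell receptor, fell by 0.52 and 0.48 on the log2 scale (adjusted p = 0.00158 and 2.78e-04). Ralgps2 fell by 1.05 (adjusted p = 6.49e-06). The other tested marker, Pou2af1, had a log2 fold change of 0.19 and did not pass (adjusted p = 0.0531). Cd79a and Cd79b had IR injury means of 0.274 and 0.391 FPKM and were tested only through the Sham libraries. Pou2af1, with a Sham mean of 0.438 FPKM, was tested only through the IR injury libraries. The p-values of these markers are thus no independent support for a difference. With median-of-ratios scaling Pou2af1 passed as higher (0.31, adjusted p = 0.00790), so that scaling gave 1 marker higher and 3 lower. Cxcr5, under the level tested, also had a higher mean in IR injury (0.0714 against 0.0462 FPKM), with overlap. Without a filter on low values, 14 of the 20 were lower and none higher, where 32.1% of the 27520 genes listed above 0 were lower. The summed level of the 19 markers other than Ralgps2, which many cell types express, was 2.37, 2.52 and 2.54 FPKM in IR injury and 6.20, 5.82 and 5.42 FPKM in Sham. None of the 20 markers was at 0 in all libraries. Their part in the lower Ighm and Ighd was not tested.

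**Figure D3:**
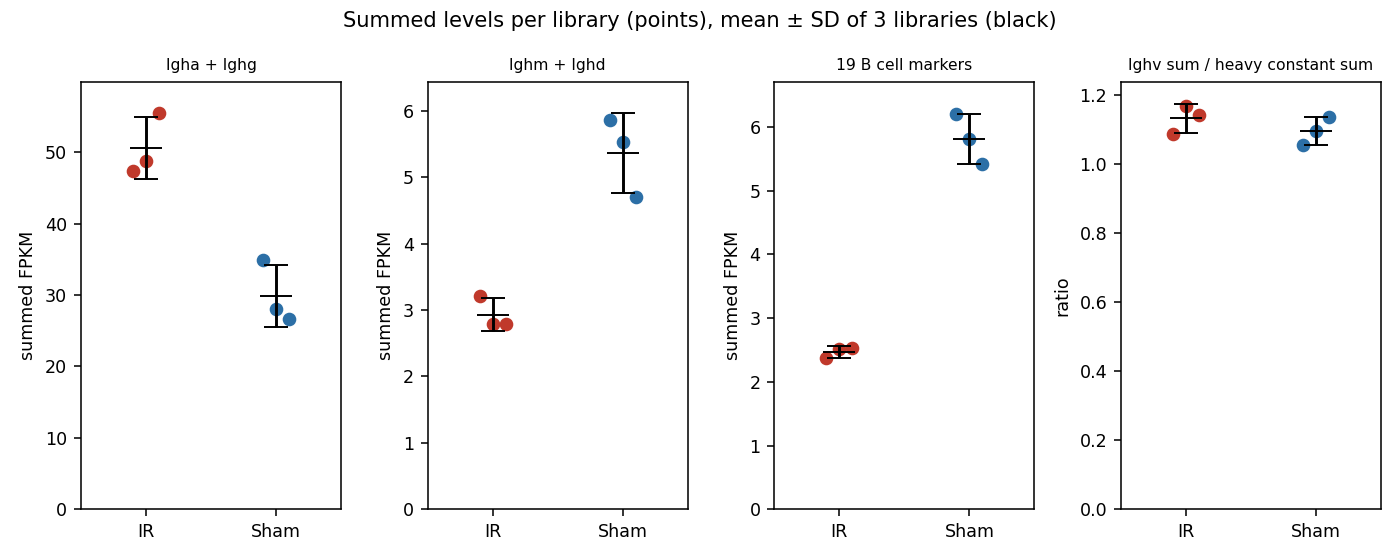
Summed FPKM (y axes, from 0) of the switched constant genes, of Ighm and Ighd, and of 19 B cell markers, and the ratio of summed Ighv to summed heavy constant FPKM; points are libraries, bars the mean ± SD of 3. The switched genes are higher in IR injury (47.4 to 55.5 against 26.7 to 34.8 FPKM), Ighm with Ighd and the B cell markers are lower, and the ratios overlap.

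The plasma cell list did not move one way. Of 14 listed genes 7 were tested, and 5 were higher and 2 lower in IR injury (5 and 1 with median-of-ratios scaling). Of all genes tested, 22.7% were higher and 53.6% lower (36.8% and 36.7% with that scaling). Without a filter on low values, 6 of the 14 were higher and 4 lower, where 12.4% and 32.1% of the 27520 genes listed above 0 were. Ell2, Creld2 and Xbp1, which serve antibody secretion in plasma cells and are also made by liver cells, rose by log2 fold changes of 2.08, 1.32 and 1.00 (adjusted p = 1.85e-07, 9.40e-07 and 1.90e-06). Txndc5, a protein disulfide isomerase, fell by 0.69 on the log2 scale (adjusted p = 8.35e-06). The levels of these 4, from 7.42 FPKM for Ell2 in a Sham library to 143.7 FPKM for Xbp1 in an IR injury library, were far above those of Mzb1 and Tnfrsf17. Derl3, which serves protein quality control in the endoplasmic reticulum, and the surface proteoglycan Sdc1 were higher, by log2 fold changes of 0.47 and 0.37 (adjusted p = 0.00349 and 5.24e-04). Derl3 had a Sham mean of 0.357 FPKM and was tested only through the IR injury libraries. Fkbp11 fell by 0.38 on the log2 scale (adjusted p = 0.0109) and did not pass with median-of-ratios scaling (-0.13, adjusted p = 0.280). Prdm1, the plasma cell factor Blimp-1, was under the level tested, at 0.325, 0.455 and 0.448 FPKM in IR injury and 0.191, 0.287 and 0.204 FPKM in Sham, without overlap. Eaf2, also under that level, went the other way without overlap, at 0.0997, 0.133 and 0.102 FPKM in IR injury and 0.161, 0.191 and 0.175 FPKM in Sham. Mzb1 was listed at 0.143, 0.0597 and 0.137 FPKM in IR injury and at 0.259, 0.172 and 0.0767 FPKM in Sham. Tnfrsf17, the receptor BCMA, was at 0 in 2 of the 3 IR injury libraries and at 0.0736 to 0.103 FPKM in Sham. Mzb1 overlapped between the groups and Tnfrsf17 was lower in every IR injury library, both from few reads and untested. The part of these genes in the higher Igkc, Igha and IgG levels was not tested.

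The V genes of the heavy and kappa chains summed to levels close to those of their constant regions. Summed Ighv FPKM was 55.0, 60.2 and 66.6 in IR injury and 43.0, 36.8 and 35.7 in Sham. Summed over the 6 heavy constant genes, the level was 50.6, 51.5 and 58.3 FPKM in IR injury and 40.7, 33.6 and 31.4 FPKM in Sham. The ratio of the 2 sums was 1.09, 1.17 and 1.14 in IR injury and 1.06, 1.10 and 1.14 in Sham, so V and constant regions of the heavy chain were higher together and the ratios overlapped. With the Ighv rows under the threshold added, the ratio was 1.29 to 1.33 in IR injury and 1.30 to 1.37 in Sham. For the kappa chain the summed Igkv level was 83.0, 86.7 and 101.5 FPKM in IR injury and 68.9, 58.3 and 59.1 FPKM in Sham. Set over Igkc, this gave ratios of 0.889, 0.892 and 0.932 in IR injury and 0.992, 1.01 and 1.04 in Sham. The kappa ratio was thus lower in every IR injury library, also when the Igkv rows under the threshold were added (0.976 to 1.02 in IR injury and 1.08 to 1.14 in Sham). For lambda, the summed Iglv level was 4.52, 5.66 and 5.64 FPKM in IR injury and 5.65, 6.05 and 5.31 FPKM in Sham, and the groups overlapped. Set over the summed lambda constant genes, it gave less even ratios of 1.02, 1.49 and 1.12 in IR injury and 1.19, 1.83 and 2.28 in Sham, with overlap.

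Single V genes went in both directions. Over all 96 members, 42 were higher, 11 lower and 43 did not pass, and 55.2% were called against 76.3% of all genes tested. Of the 85 V genes, 36 were higher, 9 lower and 40 did not pass, with a median log2 fold change of 0.19 against -0.24 over all genes. Among the Ighv genes 18 were higher and 4 lower, among the Igkv genes 18 were higher and 5 lower, and neither Iglv gene passed. In 33 V genes every IR injury library was above every Sham library, in 6 every one was below, and in 46 the groups overlapped. Of all genes tested, 79.1% had groups apart, 23.9% wholly above and 55.2% wholly below. With median-of-ratios scaling, where 73.6% of all genes were called, 44 V genes were higher and 5 lower, and no called member changed sign. V genes had from 0.502 to 6.38 FPKM on average and 1979 to 3887 rebuilt reads in all per library, far fewer reads per gene than the constant regions.

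The 10 V genes of highest mean level were 8 kappa genes, Ighv3-6 and Iglv1. Igkv17-127 (chr6:67861153-67861659) was listed at 6.16, 7.80 and 9.23 FPKM in IR injury and at 5.68, 4.62 and 4.78 FPKM in Sham. All IR injury libraries were above the Sham libraries, with a log2 fold change of 0.52 (SE 0.132, adjusted p = 0.00771). Igkv3-2 (chr6:70698449-70699067) was at 4.56, 5.18 and 4.60 FPKM in IR injury and at 3.45, 2.14 and 2.02 FPKM in Sham. The groups were apart and the log2 fold change was 0.73 (SE 0.144, adjusted p = 0.00232). Igkv1-110 (chr6:68270485-68271267) was at 4.61, 4.60 and 6.04 FPKM in IR injury and at 2.50, 1.53 and 1.86 FPKM in Sham, with a log2 fold change of 1.04 (SE 0.138, adjusted p = 2.78e-04). Igkv14-111 (chr6:68256389-68256869) was at 3.83, 4.26 and 5.08 FPKM in IR injury and at 1.91, 1.14 and 2.13 FPKM in Sham, with a log2 fold change of 1.00 (SE 0.152, adjusted p = 5.85e-04). Igkv19-93 (chr6:68736297-68736780) was at 4.18, 4.12 and 4.84 FPKM in IR injury and at 1.49, 1.65 and 1.85 FPKM in Sham. In these last 3 genes every IR injury library was far above every Sham library, and for Igkv19-93 the log2 fold change was 1.01 (SE 0.0759, adjusted p = 1.29e-05).

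Igkv10-96 and Igkv6-23 passed with less room. Igkv10-96 (chr6:68631963-68632442) was at 5.73, 5.58 and 8.25 FPKM in IR injury and at 3.67, 3.65 and 5.82 FPKM in Sham, with overlap through the third library of Sham (log2 fold change 0.49, SE 0.185, adjusted p = 0.0435). Without replicate 1 or 3 of IR injury, or 1 or 2 of Sham, its adjusted p was 0.0537, 0.123, 0.130 and 0.132. Igkv6-23 (chr6:70260409-70260955) was at 5.10, 3.07 and 4.56 FPKM in IR injury and at 2.64, 1.96 and 3.08 FPKM in Sham (log2 fold change 0.55, SE 0.172, adjusted p = 0.0205). Without replicate 1 or 3 of IR injury or replicate 2 of Sham its adjusted p was 0.0668, 0.0604 and 0.0673. The remaining 3 of the 10 did not pass. Igkv17-121 (chr6:68036812-68037318) was at 3.70, 2.84 and 2.80 FPKM in IR injury and at 4.50, 3.53 and 3.75 FPKM in Sham (adjusted p = 0.0538). It passed as lower without replicate 1 of IR injury (adjusted p = 0.0102), without replicate 2 of Sham (0.0458), as TPM (0.0330) and with a replicate block (0.00660), while median-of-ratios scaling gave a log2 fold change of 0.00. Iglv1 (chr16:19085017-19085500) was at 3.92, 3.27 and 5.25 FPKM in IR injury and at 4.95, 5.10 and 4.58 FPKM in Sham (adjusted p = 0.182), and passed as lower without replicate 3 of IR injury (-0.36, adjusted p = 0.00650). Ighv3-6 (chr12:114288152-114288582) was at 2.74, 4.44 and 4.18 FPKM in IR injury and at 3.13, 3.54 and 2.93 FPKM in Sham (adjusted p = 0.301), and passed with median-of-ratios scaling (log2 fold change 0.43, adjusted p = 0.0201) and without replicate 1 of IR injury (0.34, adjusted p = 0.00623).

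**Figure D4:**
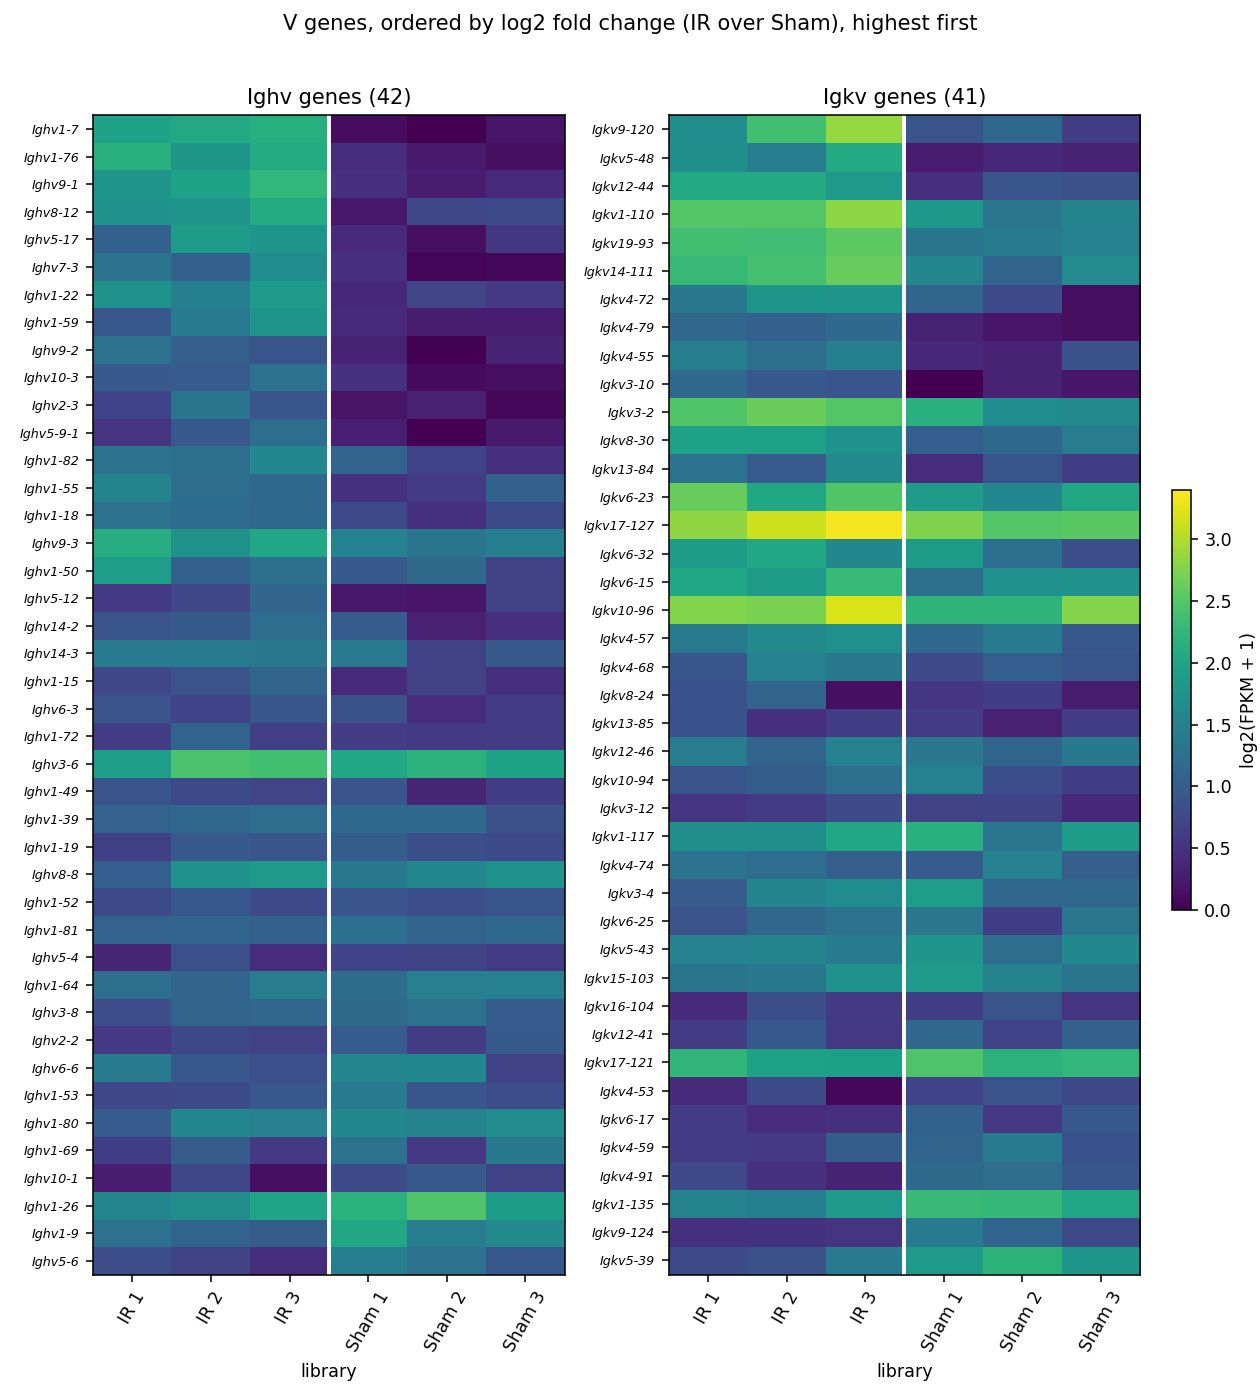
log2(FPKM + 1) (colour) of the 42 Ighv and 41 Igkv genes (rows, ordered by log2 fold change, highest first) in the 3 IR injury and 3 Sham libraries (columns). The rows at the top, led by Ighv1-7 and Igkv9-120, are bright in the IR injury columns, those at the bottom are brighter in the Sham columns, and the 3 columns of a group look alike.

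The 6 largest rises were in V genes at low levels in Sham, with Sham means of 0.0738 FPKM for Ighv1-7 to 0.867 FPKM for Igkv9-120. Shown here are the last 60 bases of each germline V transcript (GENCODE M21, mm10, 5′ to 3′), because this end, in capitals from the conserved cysteine codon onwards, is where the antigen-binding loop CDR3 starts before joining.
Ighv1-7: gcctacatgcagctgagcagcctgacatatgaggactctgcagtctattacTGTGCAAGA
Ighv1-76: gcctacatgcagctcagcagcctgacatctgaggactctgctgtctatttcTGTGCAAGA
Ighv9-1: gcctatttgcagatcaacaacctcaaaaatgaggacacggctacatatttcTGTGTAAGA
Igkv9-120: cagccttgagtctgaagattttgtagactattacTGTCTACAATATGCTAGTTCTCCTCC
Igkv5-48: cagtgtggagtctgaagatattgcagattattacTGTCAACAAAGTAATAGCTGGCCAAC
Ighv8-12: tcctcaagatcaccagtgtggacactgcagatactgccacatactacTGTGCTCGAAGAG

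Ighv1-7 (chr12:114538495-114538965) had the largest change. It was listed at 2.87, 3.14 and 3.39 FPKM in IR injury and at 0.0773, 0 and 0.144 FPKM in Sham, from 64, 84 and 71 rebuilt reads against 2, 0 and 3. Its log2 fold change on the log2(FPKM + 1) scale was 1.94 (SE 0.0740, adjusted p = 5.18e-07), a scale that understates the change of a gene near 0. Like Ighv1-76, Ighv9-1 and Igkv5-48, Ighv1-7 had a Sham mean under 0.5 FPKM and was kept and tested only through the IR injury libraries, as were 19 members in all, of which 17 were called higher. A difference was thus built into the choice of these genes, and their p-values are no independent support for it. Ighv1-76 (chr12:115847881-115848331) was at 3.46, 2.48 and 3.27 FPKM in IR injury and at 0.367, 0.189 and 0.101 FPKM in Sham (log2 fold change 1.74, SE 0.116, adjusted p = 7.18e-06). Ighv9-1 (chr12:114093928-114094358) was at 2.38, 2.93 and 3.74 FPKM in IR injury and at 0.384, 0.199 and 0.319 FPKM in Sham (log2 fold change 1.62, SE 0.124, adjusted p = 1.44e-05). In each of these 3 heavy chain genes the lowest IR injury library was more than 5 times the highest Sham library. Ighv8-12 (chr12:115647945-115648387) was at 2.34, 2.39 and 3.26 FPKM in IR injury and at 0.168, 0.662 and 0.677 FPKM in Sham (log2 fold change 1.30, SE 0.161, adjusted p = 1.93e-04). Igkv5-48 (chr6:69726573-69727138) was at 2.23, 1.73 and 3.24 FPKM in IR injury and at 0.208, 0.310 and 0.259 FPKM in Sham (log2 fold change 1.41, SE 0.148, adjusted p = 7.76e-05). Both were again apart in all libraries. Igkv9-120 (chr6:68049983-68050456) was at 2.17, 4.15 and 6.29 FPKM in IR injury and at 0.849, 1.22 and 0.528 FPKM in Sham (log2 fold change 1.41, SE 0.288, adjusted p = 0.00274), and its 3 IR injury libraries differed more from each other than those of the other 5 genes.

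The 6 largest falls were smaller in size. Their germline 3′ ends are shown in the same way.
Igkv5-39: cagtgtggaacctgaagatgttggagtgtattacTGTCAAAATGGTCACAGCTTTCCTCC
Igkv9-124: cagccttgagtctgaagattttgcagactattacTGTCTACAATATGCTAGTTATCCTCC
Ighv5-6: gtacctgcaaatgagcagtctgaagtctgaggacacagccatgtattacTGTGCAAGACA
Igkv1-135: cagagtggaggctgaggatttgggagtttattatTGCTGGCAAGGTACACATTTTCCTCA
Igkv4-91: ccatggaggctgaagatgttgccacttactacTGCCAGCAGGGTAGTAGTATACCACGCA
Ighv1-9: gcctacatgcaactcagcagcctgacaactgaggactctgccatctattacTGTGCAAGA

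Igkv5-39 (chr6:69900424-69900977) was listed at 0.703, 0.794 and 1.65 FPKM in IR injury and at 2.59, 3.57 and 2.47 FPKM in Sham. It fell by 0.94 on the log2 scale (SE 0.183, adjusted p = 0.00218), and no library of IR injury reached the lowest Sham library. Igkv1-135 (chr6:67609713-67610508) was at 1.86, 1.77 and 2.58 FPKM in IR injury and at 3.92, 3.82 and 2.98 FPKM in Sham, and fell by 0.58 (SE 0.122, adjusted p = 0.00321). Igkv9-124 (chr6:67942074-67942540) was at 0.395, 0.411 and 0.419 FPKM in IR injury and at 1.66, 1.14 and 0.687 FPKM in Sham, and fell by 0.59 (SE 0.150, adjusted p = 0.00778). The IR injury values of Igkv9-124 were nearly equal while its Sham values were spread. Igkv4-91 (chr6:68768555-68769103) was at 0.681, 0.405 and 0.258 FPKM in IR injury and at 1.26, 1.32 and 0.886 FPKM in Sham, and fell by 0.58 (SE 0.125, adjusted p = 0.00369). Ighv5-6 (chr12:113625506-113625956) was at 0.740, 0.575 and 0.367 FPKM in IR injury and at 1.74, 1.42 and 0.898 FPKM in Sham, and fell by 0.58 (SE 0.147, adjusted p = 0.00777). In both genes the groups were apart. Ighv1-9 (chr12:114583569-114584002) was at 1.44, 1.12 and 1.00 FPKM in IR injury and at 3.12, 1.71 and 2.07 FPKM in Sham, and fell by 0.58 (SE 0.155, adjusted p = 0.0105). Igkv9-124 and Igkv4-91 were kept only through the Sham libraries, as were 8 members in all, of which 5 were called lower, so the same limit holds for their p-values. With median-of-ratios scaling Ighv1-9 no longer passed (-0.37, adjusted p = 0.0594).

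Close copies of V genes did not always move together, as 4 pairs chosen after their values were seen show. Over their whole transcripts the 85 V genes had a median identity of 95.7% to the nearest V gene (62.5% to 99.2%), and 54 of them had at least 95%, so reads of close copies could be split between them by the authors' counting, which is not described. Igkv9-120 and Igkv9-124, the only Igkv9 members, rose and fell. Their last 240 bases differ at 12 positions (95% identity), in capitals here.
Igkv9-120: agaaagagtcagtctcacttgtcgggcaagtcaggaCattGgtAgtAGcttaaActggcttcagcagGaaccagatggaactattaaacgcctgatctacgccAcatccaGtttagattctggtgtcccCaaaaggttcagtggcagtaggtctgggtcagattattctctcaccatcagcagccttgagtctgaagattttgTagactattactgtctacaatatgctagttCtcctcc
Igkv9-124: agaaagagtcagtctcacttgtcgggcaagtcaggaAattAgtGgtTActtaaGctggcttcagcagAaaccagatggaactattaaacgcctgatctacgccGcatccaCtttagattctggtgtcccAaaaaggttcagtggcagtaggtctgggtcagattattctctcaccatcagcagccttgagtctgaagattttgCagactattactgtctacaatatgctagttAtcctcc

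Igkv17-127 rose, while its copy Igkv17-121 had a log2 fold change of -0.26 and did not pass. Their last 240 bases differ at only 4 positions (98.3% identity), in capitals, and reads from a stretch without capitals could come from either gene.
Igkv17-127: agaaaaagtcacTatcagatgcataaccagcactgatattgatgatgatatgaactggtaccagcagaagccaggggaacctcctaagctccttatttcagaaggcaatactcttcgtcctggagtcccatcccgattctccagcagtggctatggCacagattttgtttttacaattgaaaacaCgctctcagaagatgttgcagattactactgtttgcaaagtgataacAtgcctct
Igkv17-121: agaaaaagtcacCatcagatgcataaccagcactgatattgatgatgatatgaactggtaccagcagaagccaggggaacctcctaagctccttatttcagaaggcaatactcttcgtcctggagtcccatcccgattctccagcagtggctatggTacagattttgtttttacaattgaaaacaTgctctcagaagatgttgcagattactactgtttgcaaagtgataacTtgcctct

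Igkv1-110 rose, while Igkv1-117 was at 2.20, 2.23 and 3.11 FPKM in IR injury and at 3.45, 1.52 and 2.68 FPKM in Sham (log2 fold change 0.01, adjusted p = 0.953). This pair differs at 9 of 240 positions. In the heavy chain, Ighv1-18 was at 1.44, 1.28 and 1.21 FPKM in IR injury and at 0.683, 0.397 and 0.691 FPKM in Sham and rose (log2 fold change 0.54, adjusted p = 8.46e-04). Its copy Ighv1-26, which differs at 7 of 240 positions, was at 1.94, 2.19 and 2.95 FPKM in IR injury and at 3.50, 4.53 and 2.66 FPKM in Sham (log2 fold change -0.43, adjusted p = 0.0450). The groups overlap for Ighv1-26, and it did not pass with median-of-ratios scaling (-0.19, adjusted p = 0.329). The heavy pair is shown with its differing positions in capitals.
Ighv1-26: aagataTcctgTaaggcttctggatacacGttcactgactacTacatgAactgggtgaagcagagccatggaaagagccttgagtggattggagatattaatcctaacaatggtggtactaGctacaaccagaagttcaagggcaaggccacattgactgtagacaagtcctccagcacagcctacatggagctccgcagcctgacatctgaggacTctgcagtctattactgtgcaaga
Ighv1-18: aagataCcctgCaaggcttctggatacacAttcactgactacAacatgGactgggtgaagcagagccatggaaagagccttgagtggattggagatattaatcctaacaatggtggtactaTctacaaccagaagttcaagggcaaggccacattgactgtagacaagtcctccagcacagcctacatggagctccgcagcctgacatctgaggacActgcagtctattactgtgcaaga

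By V family, 8 of the 27 families held both a gene that rose and a gene that fell. The largest, Ighv1, had 21 members, of which 8 rose, 2 fell and 11 did not pass, and a summed level of 29.4, 29.0 and 32.4 FPKM in IR injury and 23.4, 20.2 and 19.6 FPKM in Sham. In Igkv4, with 9 members, 4 rose and 1 fell. The 3 members of Ighv9 all rose, and their summed level was 7.15, 6.28 and 7.70 FPKM in IR injury and 2.48, 1.71 and 2.34 FPKM in Sham. Of these, Ighv9-1 and Ighv9-2 had Sham means of 0.301 and 0.174 FPKM and were kept only through the IR injury libraries. Ighv9-4, left out by the threshold, went the other way, with 0 reads in IR injury and 39 rebuilt reads in Sham. The loci were also split by distance from the constant genes. In the Igkv cluster, 9 of the 20 genes nearest to Igkc rose and 2 fell, and 9 of the 21 farther ones rose and 3 fell. In the Ighv cluster, 10 of the 21 nearest to the constant genes rose and 3 fell, and 8 of the 21 farther ones rose and 1 fell. Over all genes tested, 22.7% were higher and 53.6% lower. The Igkv genes lie on both strands and all 42 Ighv genes on the minus strand.

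The most abundant V genes of the groups were the same only in part. Of the 10 Ighv genes with the highest mean in each group, 4 were in both lists (Ighv1-26, Ighv3-6, Ighv8-8 and Ighv9-3), and of the 10 highest Igkv genes 6 were (Igkv10-96, Igkv17-121, Igkv17-127, Igkv3-2, Igkv6-15 and Igkv6-23). The 5 highest Ighv genes of a library took 27.5%, 26.1% and 26.8% of the summed FPKM of the Ighv members in IR injury. In Sham they took 31.9%, 37.8% and 34.0%, so among the members a few genes weighed more in every Sham library. Rows under the threshold are left out of these sums. Adding them took the mean ratio of Ighv to heavy constant FPKM from 1.13 to 1.30 in IR injury and from 1.10 to 1.34 in Sham. Leaving them out thus raises the shares more in Sham. For the Igkv members the shares of the 5 highest were 31.5% to 34.4% in IR injury and 30.8% to 34.5% in Sham, and overlapped. The most abundant Ighv gene was Ighv1-76, Ighv3-6 and Ighv3-6 in the IR injury libraries and Ighv1-26, Ighv1-26 and Ighv3-6 in the Sham libraries.

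V profiles were more alike between libraries of the same group than between libraries of different groups. Across the 42 Ighv genes, Pearson's r of log2(FPKM + 1) was 0.715 to 0.877 in the 6 pairs of libraries within a group and -0.01 to 0.242 in the 9 pairs between groups. Across the 41 Igkv genes it was 0.823 to 0.919 within groups and 0.502 to 0.650 between them. The points are genes, which are not independent and share germline sequence, and the members include genes kept through 1 group, so the values are a description. Among the 104 V genes under the threshold and above 0, which had even fewer reads, r was 0.514 to 0.735 within groups and 0.0567 to 0.298 between groups. Other genes in the same range of mean level (n = 8105) gave 0.962 to 0.971 within groups and 0.578 to 0.604 between groups. In fragments, V genes differed between libraries of the same group by a chi-square per degree of freedom of 1.30 to 1.63, where counting noise alone gives about 1, and between groups by 3.57 to 5.87. Whether the 3 libraries of a group came from separate mice is not stated. Over all genes, same-group libraries differed by a median chi-square of 0.958 to 1.95 per gene, above the 0.455 of counting noise. Separate preparations of the same sample can also exceed counting noise, so these values cannot tell separate mice from such repeats. Each library was entered as its own replicate.

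**Figure D5:**
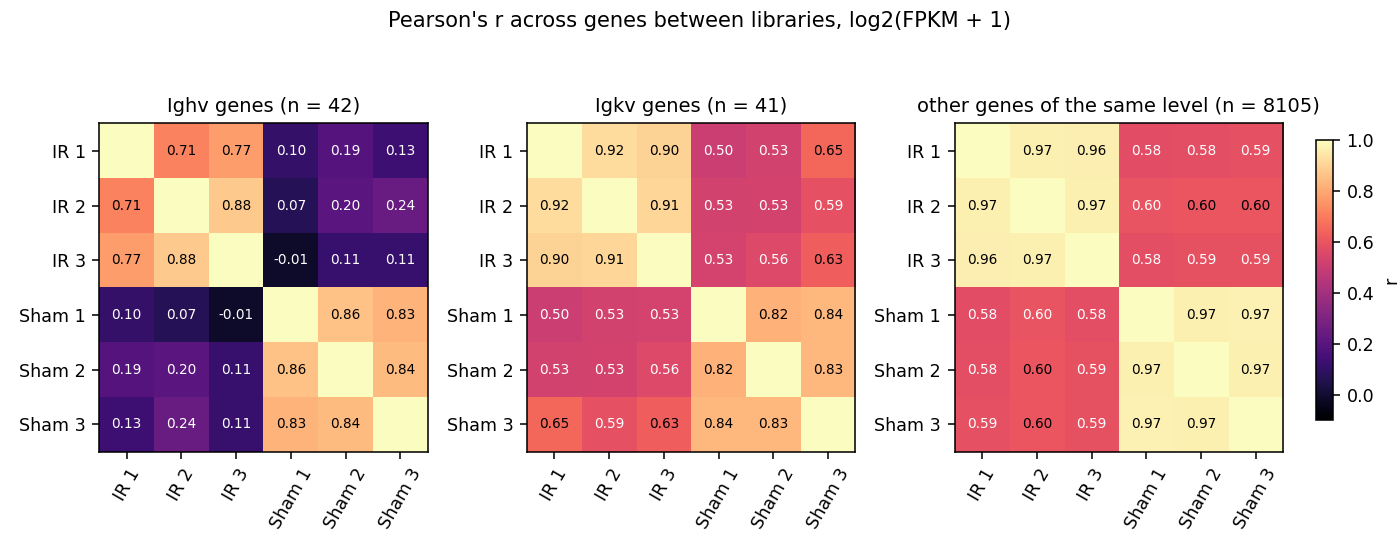
Pearson's r (colour and number) of log2(FPKM + 1) between each pair of libraries across 42 Ighv genes, 41 Igkv genes and 8105 other genes of the same level range. Pairs within the IR injury group and within the Sham group are high in all 3 panels, and pairs between the groups are lowest for Ighv (-0.01 to 0.24).

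Receptors that bind antibody changed in both directions, where 22.7% of all genes tested were higher and 53.6% lower (36.8% and 36.7% with median-of-ratios scaling). Of 8 tested genes of immunoglobulin receptors and transport, 3 rose, 3 fell and 2 did not pass (5 higher and 2 lower with median-of-ratios scaling). The activating IgG receptors Fcgr3 and Fcgr4 and their signalling chain Fcer1g rose by log2 fold changes of 1.16, 1.00 and 0.99 (adjusted p = 5.76e-07, 5.46e-06 and 4.28e-06). Fcgr3 was listed at 18.5, 19.3 and 19.5 FPKM in IR injury and at 8.26, 7.78 and 7.92 FPKM in Sham. Fcgr2b, the inhibitory IgG receptor, which is abundant on liver sinusoidal endothelium, was at 2.38, 3.05 and 4.11 FPKM in IR injury and at 8.01, 7.69 and 6.78 FPKM in Sham, and fell by 1.04 (adjusted p = 3.42e-04). Neutrophils also carry Fcgr3, Fcgr4 and Fcer1g, and the part of the neutrophil markers given above in these rises was not tested.

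Other parts of the pathway were also mixed. Their counts are to be read against the 22.7% higher and 53.6% lower of all genes tested (36.8% and 36.7% with median-of-ratios scaling). Of 11 tested genes of B cell receptor signalling, 5 rose and 5 fell (6 and 3 with median-of-ratios scaling): the adaptor Pik3ap1 and the kinase Syk rose by log2 fold changes of 1.07 and 0.62 (adjusted p = 4.46e-07 and 1.81e-04), and the phosphatase Ptpn6 fell by 1.07 (adjusted p = 1.75e-06). Many white cells besides B cells express these genes. Of 7 tested transcription factors of immunoglobulin genes, 2 rose, 2 fell and 3 did not pass (5 higher and 1 lower with median-of-ratios scaling). Bach2, a repressor that holds B cells back from becoming plasma cells, was at 9.10, 6.18 and 6.33 FPKM in IR injury and at 0.570, 0.594 and 0.518 FPKM in Sham (log2 fold change 2.38, adjusted p = 2.40e-06). Tcf3, which binds the E boxes of immunoglobulin enhancers, fell by 0.96 (adjusted p = 7.43e-05), and Ikzf1 fell by 0.25 (adjusted p = 0.0167; 0.256 with median-of-ratios scaling). Of 5 tested genes of recombination and class switching, Ung, the uracil glycosylase of class switching, rose (0.60, adjusted p = 8.84e-05). The other 4 fell, led by Xrcc5, a DNA end-binding protein (-0.95, adjusted p = 6.45e-06).

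Of 6 tested genes for signals that draw or keep B cells and plasma cells, 1 rose, 3 fell and 2 did not pass, where 53.6% of all genes tested were lower. Cxcl12, a chemokine that retains plasma cells in their niches, was at 6.06, 7.14 and 7.65 FPKM in IR injury and at 47.1, 47.7 and 45.8 FPKM in Sham, and fell by 2.59 (SE 0.0759, adjusted p = 1.75e-07). Every IR injury library was several times below every Sham library. Ccl21a, which draws lymphocytes into lymphoid tissue, was at 0.861, 2.58 and 2.00 FPKM in IR injury and at 6.84, 8.27 and 5.49 FPKM in Sham, and fell by 1.52 (SE 0.242, adjusted p = 7.45e-04). Cxcl13, the B cell chemoattractant, fell by 0.66 (adjusted p = 1.72e-04), and Cxcr4, the receptor of Cxcl12, was higher by 0.22 (adjusted p = 0.0147).

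Of other cell types that could bring immunoglobulin RNA or antibody receptors with them, Kupffer cell markers were lower in 8 of 10 tested genes (6 lower and 1 higher with median-of-ratios scaling), with summed levels of 194.8 to 245.7 FPKM in IR injury and 358.4 to 369.2 FPKM in Sham. The counts of these lists are to be read against the 53.6% lower and 22.7% higher of all genes tested. Hemoglobin and other red cell markers, a measure of blood left in the tissue, summed to 118.0 to 130.0 FPKM in IR injury and 104.3 to 149.5 FPKM in Sham, and the groups overlapped. Of these, 1 of 6 tested was higher, and 5 of 6 with median-of-ratios scaling. T cell markers summed to 3.72 to 6.80 FPKM in IR injury and 6.36 to 8.71 FPKM in Sham, with none higher and 1 lower of 3 tested (none lower with median-of-ratios scaling). NK cell markers had none higher and 2 lower of 3 tested (1 higher and 2 lower with that scaling). Intestinal epithelium markers were lower in both tested genes, Lgals4 and Fabp2, and the 1 tested pancreatic marker, Cela1, did not pass. The intestinal markers Vil1, Cdx2 and Muc2 were near 0, with means of 0.0412, 0 and 0.0444 FPKM in IR injury and 0.0761, 0.00442 and 0.0135 FPKM in Sham. Muc2 thus went the other way, and whether Lgals4 and Fabp2 came from intestinal cells was not tested. The part of these markers in the immunoglobulin levels was not tested.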

How the data were processed

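Mouse liver RNA in 3 IR injury and 3 Sham libraries was analysed, grouped by the labels' titles. The authors deposited FPKM values for 29543 genes; build mm10 is given per the submitters' processing notes. How reads were aligned and counted, with which annotation, strand setting and rule for multiply matching reads, is not given in the sources used here. Per the labels' protocols libraries were made with a SMARTER mRNA-Seq kit. Coordinates, lengths and transcript sequences came from GENCODE M21 (28977 IDs held). FPKM times length gave whole reads (within 0.05) for 98.3% of 27072 genes; these rebuilt counts describe depth, 53622229 to 71752584 reads per library. Of rebuilt counts from 1 to 10, 71.4% to 73.3% were even, so chi-squares used reads divided by 2, over genes with at least 100 (V genes: 5) fragments in a pair of libraries.

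Genes with a mean of at least 0.5 FPKM were tested on log2(FPKM + 1) with limma 3.58.1 in R 4.3.3 (moderated test with trend, two-sided, Benjamini-Hochberg over all 12322 genes, threshold 0.05); the fit was tested on simulated data. Fold changes are IR injury over Sham on that scale. SE is limma's moderated standard error. Sums, shares and identities were computed in Python 3.11.15 with scipy 1.17.1 and Biopython 1.88. Identities between V genes compare spliced transcripts.

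Named were all constant genes and Jchain, the 10 V genes of highest mean, the 6 largest rises and 6 largest falls among V genes that passed and did not overlap, up to 4 genes per list with the largest change, and V genes in statements on sequence. Members, lists and tests were chosen with earlier results of these data known. Mzb1, Tnfrsf17, Prdm1, Derl3, Sdc1, Fkbp11, Eaf2, Pou2af1, Cxcr5, Vil1, Cdx2 and Muc2 are named outside this rule, with their values seen. No p-value was computed for sums, shares or lists. Listed genes with a mean under 0.5 FPKM in a group were tested only through the other group, so their calls are no independent support. Alternatives were pseudocounts of 0.1 and 0.5, a filter at 1 FPKM and none, median-of-ratios scaling, TPM, a replicate block, robust limma, voom on rebuilt reads and leaving out each library.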

Additional observations from a re-analysis of the deposited data

How the results depend on the processing

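Of the 77 genes named by the rule above, 63 kept their sign and their side of the threshold under all 15 alternatives. The 8 called constant genes and Jchain were among those that kept their call wherever they were tested. With median-of-ratios scaling, 4539 genes were higher, and 7 members, 5 V genes and 1 plasma cell marker were lower, while 1 B cell marker became higher. Alb (0.0535), Ttr (0.0464) and Cps1 (0.00518) turned from lower to slightly above 0, by construction of that scaling. With a filter at 1 FPKM, fewer genes were tested, and 5 members, 1 constant gene, 4 V genes and 1 B cell marker were lower. Without a filter, 14 B cell and 4 plasma cell markers were lower, since more were tested. Robust limma called 1 B cell marker higher; the cause was not tested. Leaving out each library gave 38 to 46 members higher and 8 to 13 lower, and 0 to 1 B cell markers higher. On rebuilt reads, voom called 40 members higher and 9 lower.

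The replicate numbers of the 2 groups share only a number: same-numbered libraries correlated at -0.03, 0.01 and -0.09 in their deviations from the group means. With the number as a block, 44 members were higher and 12 lower. Few reads per V gene limit the precision of V gene changes near 0.5 FPKM.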

Other observations

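Some V genes under the level threshold were listed in 1 group only. Ighv9-4, Ighv2-6-8 and Igkv12-38 were at 0 in all IR injury libraries and had 39, 32 and 27 rebuilt reads over the 3 Sham libraries. In the other direction, Ighv3-3, Igkv8-16 and Igkv3-9 had 12, 10 and 7 reads over the 3 IR injury libraries and were at 0 in all Sham libraries. Ighg3, the IgG3 constant region, stayed under the threshold at 0.194, 0.173 and 0.140 FPKM in IR injury and 0.0955, 0.0777 and 0.0668 FPKM in Sham, from 28, 30 and 19 reads and from 16, 14 and 9 reads. The IgE constant region Ighe had 0, 2 and 0 reads in IR injury and 0, 2 and 2 reads in Sham. Rag1, which cuts V genes for joining in developing B cells, had 2 reads in each IR injury library and 0 in each Sham library. These genes were named after their values were seen and were not tested, and at such counts neither presence in cells nor a difference can be read from them.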
